A study of Mus musculus with 12 samples.

Results

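Long non-coding RNAs that stay in the nucleus or that carry small nucleolar RNAs (snoRNAs) in their introns were followed in mouse microglia after bone marrow transplantation. The 10 genes were Malat1, Neat1, Kcnq1ot1, Miat, Snhg20, Gas5, Snhg1, Snhg12, Snhg8 and Snhg11, out of 24328 gene rows in the deposited count table, and 8 of them were among the 12695 genes with enough counts to test. They were chosen by name, because Malat1 and Snhg20 stand far lower after transplantation than without it. Their values in transplanted mice against untransplanted mice are therefore given as a description, with no test, and the comparison of allogeneic with syngeneic recipients carries the tests.

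RNA was sequenced from microglia, the brain's own macrophages, which were purified by FACS from the brains of wild-type BALB/c mice, with 4 mice per group. Allogeneic recipients were lethally irradiated, received 5000000 allogeneic bone marrow cells and 300000 T cells, and were examined on day 14, when acute graft-versus-host disease peaks per the labels. Syngeneic recipients had the same irradiation, cell numbers and day with syngeneic marrow and T cells. Both transplanted groups thus share irradiation and the transfer of marrow and T cells, and differ in whether the donor cells were allogeneic or syngeneic. Control mice were not transplanted, so irradiation and transplantation cannot be told apart in any comparison with them. The sources used here do not give the donor strain, the age or the sex of the mice.

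Most messenger RNAs leave the nucleus to be translated, but some long non-coding RNAs stay there. Malat1 gathers in nuclear speckles, where splicing factors are stored, and the long form of Neat1 is the scaffold of paraspeckles, which hold RNA-binding proteins. Genes of the Snhg family and Gas5 are transcribed and spliced so that the introns release snoRNAs, which guide chemical modification of ribosomal and small nuclear RNA, while the spliced exons are often exported, bound by ribosomes and removed by nonsense-mediated decay.

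Malat1 and the long form of Neat1 end without a poly(A) tail. The sources used here do not say whether the libraries selected poly(A) RNA or removed ribosomal RNA. That choice bears on the counts of such RNAs, and its part in the levels below was not tested. The 3′ ends of both RNAs fold into a triple helix between U-rich motifs and an A-rich tract, and the enzyme RNase P cuts the transcript just after the tract. Both ends are shown because they are the sequence feature that sets these nuclear RNAs apart from the spliced host RNAs. Capitals mark the U-rich motifs and the A-rich tract, the strand is that of the RNA, and the sequences come from the GENCODE transcripts on GRCm38. The Malat1 stretch lies at chr19:5795920-5796073 on the minus strand and runs on into the tRNA-like small RNA that RNase P releases. The Neat1 stretch lies at chr19:5824708-5824803 on the minus strand and stops at the end of the annotated transcript.
Malat1 3′ end: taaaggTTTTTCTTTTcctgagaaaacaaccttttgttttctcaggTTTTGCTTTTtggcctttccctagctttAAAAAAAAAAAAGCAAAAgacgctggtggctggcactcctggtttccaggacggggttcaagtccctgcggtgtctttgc
Neat1 3′ end: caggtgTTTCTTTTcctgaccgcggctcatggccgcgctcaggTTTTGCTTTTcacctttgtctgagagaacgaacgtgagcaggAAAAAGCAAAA
The letters TTTTGCTTTT followed within 60 bases by AAAAAGCAAAA, searched on the RNA strand, occurred in 4 of 141767 GENCODE transcripts, which belong to 3 genes, Malat1, Neat1 and Retreg3. These letters were taken from the Neat1 end shown, so the match of Neat1 was fixed in advance. The Malat1 end was likewise known to hold them.

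Many snoRNA host genes are known to begin, like ribosomal protein genes, with a run of pyrimidines at the start site, the terminal oligopyrimidine (TOP) start by which translation of such RNAs is regulated. Gas5, Snhg12 and Snhg8 meet the letter rule given below for such a run, and Snhg1, Snhg20 and Malat1 do not. The first bases of these 6 members are shown for that reason. At the Snhg1 start the C and T letters stop short of the rule, and a longer run of them follows a few bases on. Whether the run goes with the log2 differences between allogeneic and syngeneic recipients was not tested. These were 1.57 for Gas5, 1.30 for Snhg12 and 0.66 for Snhg8 with the run. Without it they were 0.78 for Snhg1, 0.73 for Snhg20 and 0.26 for Malat1. Gas5 and Snhg12 thus had the highest values of the 6. The 95% intervals of Snhg8 (0.32 to 0.99), Snhg1 (0.39 to 1.16), Snhg20 (0.24 to 1.21) and Malat1 (-0.66 to 1.17) overlapped. Their values therefore give no order among these genes. Each stretch covers 10 bases before and 40 bases from the RefSeq start on GRCm38.p6, and capitals mark a C at most 3 bases from the start with the C and T letters that follow it. The stretches lie at chr1:161035156-161035205 (plus strand) for Gas5, chr4:132308668-132308717 (plus strand) for Snhg12, chr3:123508297-123508346 (minus strand) for Snhg8, chr19:8723477-8723526 (plus strand) for Snhg1, chr11:117076773-117076822 (plus strand) for Snhg20 and chr19:5802633-5802682 (minus strand) for Malat1.
Gas5: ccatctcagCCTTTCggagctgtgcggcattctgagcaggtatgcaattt
Snhg12: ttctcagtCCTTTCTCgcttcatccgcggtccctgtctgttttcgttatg
Snhg8: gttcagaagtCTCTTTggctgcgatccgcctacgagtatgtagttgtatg
Snhg1: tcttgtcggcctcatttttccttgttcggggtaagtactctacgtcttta
Snhg20: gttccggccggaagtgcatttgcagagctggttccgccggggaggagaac
Malat1: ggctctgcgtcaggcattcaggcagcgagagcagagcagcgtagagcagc
A C in that window followed by at least 4 C or T letters was found at 9.96% of 32851 RefSeq starts and at 32.9% of the starts of 76 cytosolic ribosomal protein genes. Of the 9 members in that table, Gas5, Snhg12, Snhg8 and Miat have it, Gas5 at the start shown of its 2 starts. A match of these letters is a description of the window and no evidence of regulation. Most ribosomal protein starts did not meet the rule either, so a missing match is no evidence that a gene lacks a TOP start.

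Library totals were 35559202 to 42641198 counts in allogeneic, 36422729 to 46126118 in syngeneic and 32652208 to 45439607 in control libraries. Levels are CPM, read counts scaled to a common library size, using totals multiplied by TMM factors, which were 0.844 to 0.893 in allogeneic, 1.0 to 1.02 in syngeneic and 1.10 to 1.16 in control libraries. A gene with 0 counts over the 4 libraries of a group could still have up to 0.019 CPM in allogeneic, 0.0181 CPM in syngeneic and 0.0202 CPM in control microglia, for counting error only. All 12 microglia markers checked, P2ry12 and Tmem119 among them, had counts in every group, and their summed level was 36300 ± 709 CPM in allogeneic, 48870 ± 1254 CPM in syngeneic and 52890 ± 3173 CPM in control libraries (SD, n = 4 each). Summed levels of 9 monocyte markers were 325 to 513 CPM in allogeneic, 40.1 to 75.9 CPM in syngeneic and 18.6 to 21.2 CPM in control libraries, with Chil3 among those at 0 in syngeneic libraries. Those of 10 choroid plexus markers were 423 to 799 CPM in allogeneic, 1445 to 2524 CPM in syngeneic and 21.9 to 147 CPM in control libraries, with Aqp1 at 0 in control libraries. Border-associated macrophage markers summed to 165 to 181 CPM in allogeneic, 233 to 310 CPM in syngeneic and 376 to 451 CPM in control libraries. Astrocyte markers summed to 402 to 493, 322 to 379 and 273 to 346 CPM in the same order. Of the 12 microglia markers, 7 were called lower and 1 higher in allogeneic against syngeneic. These lists differed between the groups compared below, and their part in the results was not tested. In a sorted bulk sample, fewer cells that hold a transcript and less of it per cell cannot be told apart.

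Malat1 was, per kilobase, the most abundant of the 10 RNAs in control microglia, and after either transplant it stood at a small part of that level. It had 125.6, 44.8, 65.6 and 93.7 CPM in the 4 allogeneic libraries, 79.1, 51.3, 31.1 and 114.4 CPM in the 4 syngeneic libraries, and 5387, 5800, 5006 and 7037 CPM in the 4 control libraries. All 8 transplanted libraries were below every control library, and the allogeneic and syngeneic values overlapped. Malat1 took 0.00394 to 0.0112% of all counts in allogeneic, 0.00312 to 0.0117% in syngeneic and 0.562 to 0.815% in control libraries. Its log2 fold change was -6.14 (SE 0.50, 70.5-fold lower) in allogeneic against control and -6.40 (SE 0.51, 84.2-fold lower) in syngeneic against control. Allogeneic against syngeneic differed by 0.26 on the log2 scale (95% interval -0.66 to 1.17, edgeR adjusted p = 0.76), and by -0.02 without the first allogeneic library.

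Neat1, which lies beside Malat1 on chromosome 19, stood far lower in the transplanted groups too, and varied most between mice. It had 0.126, 0.0801, 3.29 and 0.294 CPM in allogeneic libraries, 3.81, 1.03, 0.493 and 0.859 CPM in syngeneic libraries, and 33.9, 46.1, 39.3 and 37.6 CPM in control libraries. The third allogeneic and the first syngeneic library were each far above the rest of their group, with 115 and 171 counts, while the other 3 allogeneic libraries had 3 to 10 counts. The log2 fold change was -5.36 (SE 1.04) in allogeneic against control, or -7.86 without the third allogeneic library, and -4.65 (SE 0.99) in syngeneic against control. Allogeneic against syngeneic differed by -0.72 (95% interval -2.82 to 1.39, edgeR adjusted p = 0.703). That value rests on single libraries, since it was -3.22 (adjusted p = 0.00347) without the third allogeneic library and 0.24 (adjusted p = 0.925) without the first syngeneic one. The table has a single row for Neat1, so its short polyadenylated form and its long form are counted together.

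Frmd8, the next gene beyond Neat1 on the same strand, was lower after transplantation by a far smaller amount. It averaged 25.3 CPM in allogeneic, 30.4 CPM in syngeneic and 69.8 CPM in control microglia, with log2 fold changes against control of -1.46 (SE 0.19, edgeR adjusted p = 3.08e-06) in allogeneic and -1.20 (SE 0.19, adjusted p = 3.58e-05) in syngeneic recipients.

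Kcnq1ot1, an imprinted nuclear RNA that silences neighbouring genes on the paternal chromosome, was also far lower in both transplanted groups. It had 4.54, 2.46, 0.715 and 2.74 CPM in allogeneic libraries, 3.14, 1.90, 1.26 and 1.39 CPM in syngeneic libraries, and 21.2, 43.3, 36.5 and 49.7 CPM in control libraries. Every transplanted library was below every control library, and the transplanted groups overlapped. Its log2 fold change was -3.85 (SE 0.44) in allogeneic against control and -4.28 (SE 0.45) in syngeneic against control. Allogeneic against syngeneic differed by 0.43 (95% interval -0.44 to 1.31, edgeR adjusted p = 0.563), by 0.03 without the first allogeneic library and by 0.77 without the first syngeneic one. Kcnq1, the potassium channel gene that it overlaps on the other strand, had 0 counts in all 12 libraries. Miat, a nuclear RNA abundant in neurons, was not tested: it had 2 counts in the allogeneic, 3 in the syngeneic and 3 in the control group, at or below the limit that a count of 0 allows.

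Snhg20, a spliced RNA that also holds the microRNA gene Mir6516, was the most even of the members among control mice and stood nearly as far from them as Malat1. It had 2.93, 1.66, 1.29 and 1.74 CPM in allogeneic libraries, 0.891, 1.27, 1.31 and 1.11 CPM in syngeneic libraries, and 65.3, 63.4, 62.6 and 66.3 CPM in control libraries. No transplanted library came near a control library, and the lowest allogeneic library lay below the highest syngeneic one. Its log2 fold change was -5.09 (SE 0.24, 33.9-fold lower) in allogeneic against control and -5.81 (SE 0.25, 56.1-fold lower) in syngeneic against control. Allogeneic recipients were above syngeneic recipients by 0.73 (SE 0.23, edgeR adjusted p = 0.0363). This call was lost with library totals alone as the scale (0.53, adjusted p = 0.113) and without the first allogeneic library (0.44, adjusted p = 0.155). The row of Mir6516 had 8 counts in the allogeneic, 0 in the syngeneic and 173 in the control group, and Sec14l1, the next gene on the same strand, differed less (78.7 CPM in allogeneic, 91.6 CPM in syngeneic and 149.4 CPM in control microglia on average).

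**Figure D1:**
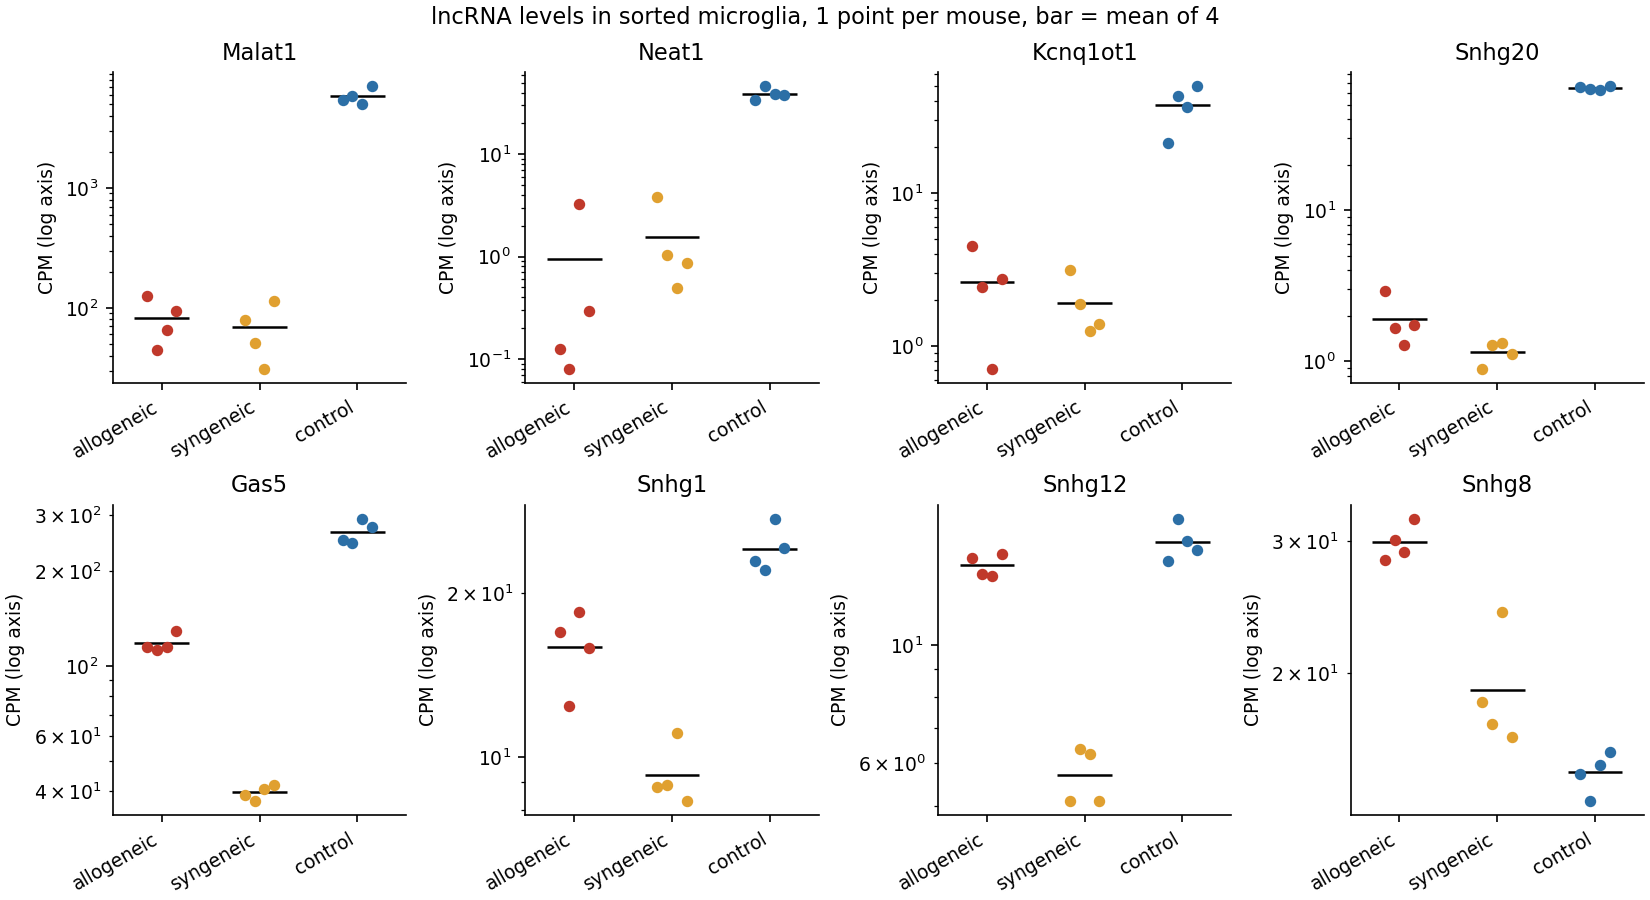
CPM on log axes for 8 lncRNAs in allogeneic, syngeneic and control microglia, with 1 point per mouse and a bar at the mean of 4. Malat1, Neat1, Kcnq1ot1 and Snhg20 have every transplanted library far below the control libraries, while Gas5, Snhg1, Snhg12 and Snhg8 have every allogeneic library above every syngeneic one.

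The 4 remaining tested host RNAs showed a different order, with allogeneic recipients above syngeneic recipients without overlap. Gas5, whose exons have been described as a decoy of the glucocorticoid receptor in human cells and which accumulates when growth stops, had 115.0, 112.6, 114.4 and 129.1 CPM in allogeneic libraries, 38.9, 37.3, 40.8 and 41.9 CPM in syngeneic libraries, and 249.9, 245.4, 293.1 and 276.3 CPM in control libraries. The 3 groups were fully separate. Gas5 was higher in allogeneic than in syngeneic recipients by 1.57 on the log2 scale (SE 0.09, 2.96-fold, edgeR adjusted p = 2.51e-10). Against control its log2 fold change was -1.18 (SE 0.08) in allogeneic and -2.74 (SE 0.09) in syngeneic recipients. Zbtb37, a zinc finger gene that overlaps Gas5 on the other strand, averaged 4.02 CPM in allogeneic, 5.86 CPM in syngeneic and 14.2 CPM in control microglia, and its allogeneic against syngeneic difference did not pass the test (-0.54, adjusted p = 0.271).

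Snhg12 had 14.6, 13.6, 13.5 and 14.8 CPM in allogeneic libraries, 5.10, 6.40, 6.24 and 5.10 CPM in syngeneic libraries, and 14.4, 17.3, 15.7 and 15.1 CPM in control libraries. The syngeneic libraries were apart from both other groups, and the allogeneic and control libraries overlapped. It was higher in allogeneic than in syngeneic recipients by 1.30 (SE 0.20, 2.47-fold, edgeR adjusted p = 7.38e-05). Its log2 fold change against control was -0.14 (SE 0.19) in allogeneic and -1.45 (SE 0.20) in syngeneic recipients, and the allogeneic value was -0.54 with an offset for GC content and length.

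Snhg1 had 17.0, 12.4, 18.4 and 15.8 CPM in allogeneic libraries, 8.80, 8.90, 11.1 and 8.31 CPM in syngeneic libraries, and 22.9, 22.0, 27.4 and 24.2 CPM in control libraries. Again the 3 groups did not overlap. The allogeneic level was higher than the syngeneic one by 0.78 (SE 0.18, 1.72-fold, edgeR adjusted p = 0.00537), and the log2 fold change against control was -0.60 (SE 0.18) in allogeneic and -1.38 (SE 0.19) in syngeneic recipients, or -1.22 and -1.91 with that offset. Its neighbours Slc3a2, an amino acid transporter chain, and Wdr74, a ribosome assembly factor, did not pass the test between allogeneic and syngeneic recipients (-0.17, adjusted p = 0.398, and -0.08, adjusted p = 0.773). Against control both were lower too. Slc3a2 had log2 fold changes of -1.03 in allogeneic and -0.87 in syngeneic recipients (SE 0.12 each). Wdr74 had -0.80 and -0.72 (SE 0.14 each).

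Snhg8 was the exception among the 8, with its lowest level in control mice. It had 28.4, 30.2, 29.0 and 32.2 CPM in allogeneic libraries, 18.3, 17.1, 24.1 and 16.4 CPM in syngeneic libraries, and 14.7, 13.5, 15.1 and 15.7 CPM in control libraries. All 3 groups were separate, with the third syngeneic library closest to the allogeneic ones. The allogeneic level was higher than the syngeneic one by 0.66 (SE 0.16, 1.58-fold, edgeR adjusted p = 0.00656), but after correction for GC content and length (a loess offset) the difference was 0.31 (adjusted p = 0.202). Against control the log2 fold change was 1.02 (SE 0.16) in allogeneic and 0.36 (SE 0.16) in syngeneic recipients. With the same offset they were 0.19 and -0.12, so the sign for syngeneic recipients turned. Snhg11, which neurons express in plenty, was not tested: it had 10 counts in the allogeneic, 25 in the syngeneic and 3 in the control group, with 17 of the 25 in the fourth syngeneic library. Summed CPM of 14 neuron markers were 14.8 to 19.3 in allogeneic, 12.4 to 27.7 in syngeneic and 12.1 to 16.4 in control libraries, with Gad1 and Gad2 at 0 in allogeneic and Map2 and Slc17a7 at 0 in control libraries; their part in the Snhg11 counts was not tested.

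Of the 8 tested members, 5 were higher in allogeneic than in syngeneic recipients at an adjusted p under 0.05 and 0 were lower. Among all tested genes 10.1% were called higher and 6.38% lower, 1288 and 810 genes. With library totals alone as the scale, the calls were 844 higher against 2108 lower, with a median over all genes of -0.22 on the log2 scale. All 4 allogeneic libraries were above all 4 syngeneic libraries in 4 members and in 12.6% of all tested genes, and all below in 0 members and in 8.1% of all tested genes. The median log2 fold change was 0.69 over the 8 tested members and -0.01 over all genes. The gains of Gas5, Snhg12 and Snhg1 passed the test in every alternative run, whose adjusted p reached 9.74e-09, 0.000605 and 0.0269 at most.

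In allogeneic against control, 6 members had every allogeneic library below every control library and 1, Snhg8, had every one above, where 27.7% and 26.2% of all tested genes did so. In syngeneic against control, 7 members were entirely below and Snhg8 entirely above, where 25.5% and 24.6% of all tested genes did so. These comparisons share the control libraries and are the ones for which the members were chosen, so nothing is read from the counts.

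**Figure D2:**
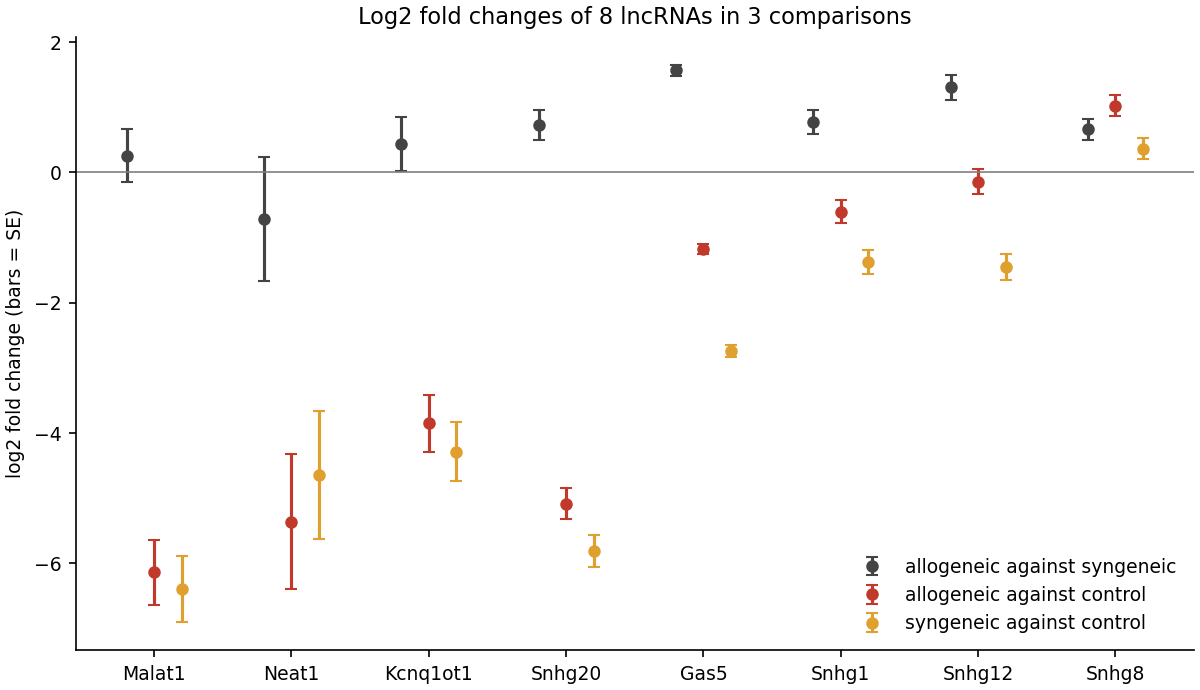
Log2 fold changes of 8 lncRNAs (vertical axis, bars = SE) in allogeneic against syngeneic, allogeneic against control and syngeneic against control. Malat1, Neat1, Kcnq1ot1 and Snhg20 lie between -3.85 and -6.40 against control in both transplanted groups, and Gas5 and Snhg12 have the greatest allogeneic against syngeneic differences, 1.57 and 1.30.

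Per kilobase of annotated exon, the order of the levels changed with the group. In allogeneic microglia Snhg8 (35.1 ± 1.97 CPM per kb) and Gas5 (31.3 ± 2.03) came first, within their spread of each other, then Malat1 (11.8 ± 5.02), then Snhg12 (5.87 ± 0.284) and Snhg1 (5.36 ± 0.864), which also overlapped. In syngeneic microglia Snhg8 (22.2 ± 4.13 CPM per kb) was followed by Gas5 (10.6 ± 0.544) and Malat1 (9.88 ± 5.18), which overlapped, and by Snhg1 (3.12 ± 0.412) and Snhg12 (2.38 ± 0.293). In control microglia Malat1 (832 ± 126 CPM per kb) was followed by Gas5 (70.8 ± 5.99), Snhg20 (23.0 ± 0.604), Snhg8 (17.3 ± 1.08), Snhg1 (8.13 ± 0.793) and Snhg12 (6.49 ± 0.508), each apart from the next by more than the SDs. Snhg20 thus stood below Snhg1 and Snhg12 in both transplanted groups, at 0.681 ± 0.255 CPM per kb in allogeneic and 0.410 ± 0.0684 CPM per kb in syngeneic microglia. Neat1 and Kcnq1ot1 came after it in each group, and Snhg11 and Miat, both near 0, came last. The exon lengths are those of GENCODE, since the gene models used for counting are not given.

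Variation between mice also separated the members. The SD of log2 CPM within groups was 1.41 for Neat1, 0.78 for Kcnq1ot1 and 0.61 for Malat1, against a median of 0.31 over all tested genes, and 0.10 for Gas5, 0.13 for Snhg12, 0.16 for Snhg8 and 0.19 for Snhg1. For Malat1 it was 0.64 in allogeneic, 0.81 in syngeneic and 0.21 in control mice, and for Snhg20 it was 0.49 in allogeneic, 0.24 in syngeneic and 0.04 in control mice.

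The snoRNA rows of the table were nearly empty in both transplanted groups. Sequences of 3 snoRNAs in the introns of Gas5 and Snhg12 are shown because their rows could be set beside their host RNA. They are GENCODE sequences on GRCm38, with the C box and D box of Snord47 and Snord99 in capitals, and the H box and the ACA letters of Snora61 in capitals. Their positions are chr1:161038082-161038158 for Snord47, chr4:132310691-132310764 for Snord99 and chr4:132310240-132310369 for Snora61, all on the plus strand. Among 1507 GENCODE snoRNAs, 20.8% have a C box (ATGATGA or GTGATGA) and CTGA in the last 16 bases, and 3.32% have AGAGCA and an ACA that ends 3 bases before the 3′ end, on the RNA strand.
Snord47: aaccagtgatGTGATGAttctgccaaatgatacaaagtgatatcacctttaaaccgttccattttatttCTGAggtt
Snord99: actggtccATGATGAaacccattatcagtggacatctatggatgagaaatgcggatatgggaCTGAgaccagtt
Snora61: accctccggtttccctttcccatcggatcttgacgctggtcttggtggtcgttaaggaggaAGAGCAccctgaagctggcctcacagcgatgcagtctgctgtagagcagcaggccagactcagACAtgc
Snord47, inside Gas5, had 13 counts in the allogeneic, 5 in the syngeneic and 106 in the control group. Snord99, inside Snhg12, had 17 counts in the allogeneic, 7 in the syngeneic and 327 in the control group. Snora61, also inside Snhg12, had 6 counts in the allogeneic, 5 in the syngeneic and 52 in the control group.

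The gap to control was thus wide for the snoRNA rows inside Snhg12, while the Snhg12 row itself had 1946 counts in the allogeneic, 956 in the syngeneic and 2613 in the control group. Snord22, inside Snhg1, had 5 counts in the allogeneic, 0 in the syngeneic and 76 in the control group, while Snora24, inside Snhg8, had 0 counts in every group. Over all 114 snoRNA and scaRNA rows, the summed level was 4.73, 3.31, 3.69 and 3.41 CPM in allogeneic libraries, 2.38, 2.24, 2.52 and 2.78 CPM in syngeneic libraries, and 59.5, 62.1, 68.3 and 65.7 CPM in control libraries. The 3 groups did not overlap, and the sum was not tested. Reads from mature snoRNAs and from the introns that hold them cannot be told apart in these rows, and the sources used here do not say how the libraries treated short RNAs.

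**Figure D3:**
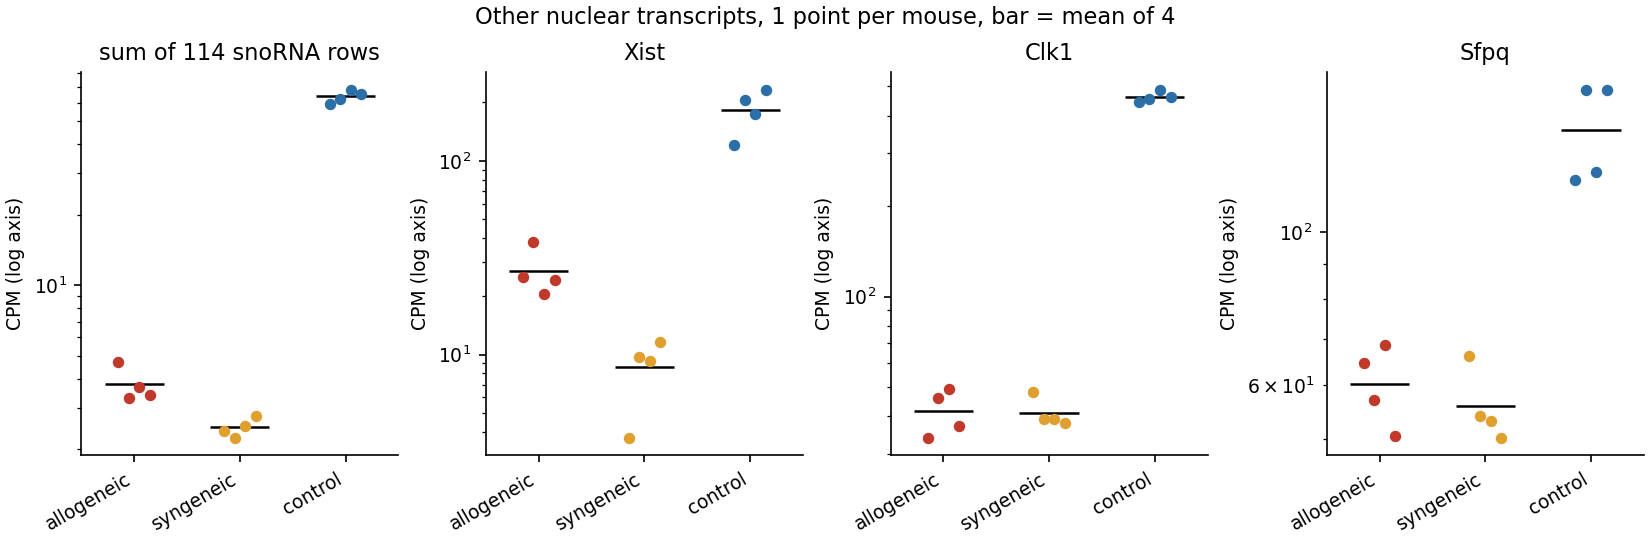
CPM on log axes for the sum of 114 snoRNA rows, the nuclear RNA Xist, the kinase gene Clk1 and the paraspeckle protein gene Sfpq, with 1 point per mouse in allogeneic, syngeneic and control microglia and a bar at the mean of 4. All 4 measures have every transplanted library below every control library, and Xist has every allogeneic library above every syngeneic one.

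The other snoRNA-host lncRNAs also stood lower after transplantation. Of 8 tested, 7 fell and 0 rose in allogeneic against control, all 8 fell in syngeneic against control, and 2 rose and 0 fell in allogeneic against syngeneic. Among all tested genes 29.1% fell and 28.2% rose in allogeneic against control (3697 and 3576 genes), and 25.6% fell and 26.4% rose in syngeneic against control (3253 and 3357 genes). With library totals alone these were 5259 lower and 2453 higher in allogeneic against control (median log2 fold change -0.44), and 3968 lower and 2723 higher in syngeneic against control (median -0.20). Snhg6 averaged 12.3 ± 1.94 CPM in allogeneic, 6.48 ± 1.58 CPM in syngeneic and 11.2 ± 1.94 CPM in control microglia (SD, n = 4 each) and was higher in allogeneic than in syngeneic recipients by 0.93 (SE 0.24, edgeR adjusted p = 0.0123). Snhg7 averaged 0.576 ± 0.113 CPM in allogeneic, 0.186 ± 0.111 CPM in syngeneic and 9.84 ± 0.818 CPM in control microglia, with an allogeneic against syngeneic difference of 1.60 (SE 0.48, adjusted p = 0.028) on 79 and 32 counts. Across the alternatives between 0 and 2 of these RNAs were called in that comparison. Snhg17, which neighbours Snhg11 on the opposite strand, fell by 2.20 in allogeneic against control and by 2.99 in syngeneic against control (SE 0.47 and 0.49).

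Protein-coding snoRNA hosts, most of them ribosomal protein or translation factor genes, went the other way against control. Of 26 tested, 22 rose and 0 fell in allogeneic against syngeneic (median log2 fold change 0.71), 23 rose and 2 fell in allogeneic against control (median 1.71), and 21 rose and 4 fell in syngeneic against control (median 0.98). Rps12, a protein of the small ribosomal subunit, averaged 630 ± 27.6 CPM in allogeneic, 291 ± 13.1 CPM in syngeneic and 148.0 ± 13.4 CPM in control microglia, with an allogeneic against syngeneic difference of 1.11 (SE 0.07, edgeR adjusted p = 2.12e-09). The mRNAs with a TOP start other than ribosomal protein mRNAs moved alike, with 14 of 17 higher and 0 lower in allogeneic against syngeneic (median 0.61). Among all tested genes 10.1% were called higher and 6.38% lower in that comparison. Against control 28.2% of all tested genes rose and 29.1% fell in allogeneic recipients, and 26.4% rose and 25.6% fell in syngeneic recipients. The TOP list shares genes with the snoRNA hosts, Gnb2l1 and Tpt1 among them. Many of the hosts are also ribosomal protein genes, so the counts in this paragraph are not independent. Npm1, a nucleolar protein of ribosome assembly, averaged 1130 ± 46.3 CPM in allogeneic, 677 ± 34.2 CPM in syngeneic and 257.5 ± 15.9 CPM in control microglia, and its allogeneic against syngeneic difference was 0.74 (SE 0.06, adjusted p = 6.12e-08). Gas5, Snhg12 and Snhg8, the tested members with a pyrimidine run at the start, were likewise higher in allogeneic than in syngeneic recipients. So were Snhg1 and Snhg20, which have no such run by the same letters. Their differences (0.78, SE 0.18, and 0.73, SE 0.23) and that of Snhg8 (0.66, SE 0.16) lay within the SEs of each other. The call of Snhg20 was lost in limma-voom (adjusted p = 0.428). That of Snhg8 was lost in edgeR with the offset for GC content and length (adjusted p = 0.202). A link between the run and these differences was not tested. Against control Gas5 was lower in both transplanted groups, whereas Snhg8 was higher in both, as most of these mRNAs were, except that its syngeneic value was -0.12 with the offset for GC content and length. By symbol, 75 of 81 cytosolic ribosomal protein genes rose and 0 fell in allogeneic against syngeneic, a family whose counts are uncertain because many pseudogenes share its sequence.

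Genes for proteins that work with snoRNAs were not called between the transplanted groups. Of 17 genes for snoRNP proteins and their assembly factors, edgeR called 0 in allogeneic against syngeneic (median 0.08), where 16.5% of all tested genes were called. A count of 0 in a list this short, here or for the RNase P list below, is not read further. At an unadjusted p under 0.05 there were 4, all higher, DESeq2 and limma-voom called 1 each, and leaving out a library gave up to 2. Of the snoRNP genes 9 rose and 3 fell in allogeneic against control, and 7 rose and 1 fell in syngeneic against control. Among all tested genes 28.2% rose and 29.1% fell in the first of these comparisons, and 26.4% rose and 25.6% fell in the second. Nhp2, a core protein of H/ACA particles, averaged 73.8 ± 6.19 CPM in allogeneic, 65.0 ± 5.15 CPM in syngeneic and 29.0 ± 2.94 CPM in control microglia. Of 11 tested genes for RNase P proteins, the tRNA 3′ end nuclease RNase Z and Mettl16, which binds the Malat1 triple helix, edgeR, DESeq2 and limma-voom each called 0 in allogeneic against syngeneic, where 3 had an unadjusted p under 0.05 in edgeR (2 higher and 1 lower). Against control 5 rose and 1 fell in allogeneic recipients, and 3 rose and 1 fell in syngeneic recipients, where 28.2% and 26.4% of all tested genes rose, so the syngeneic count of rises is near the background. Rpp30, an RNase P protein named for its small p, was higher by 0.88 (SE 0.14, adjusted p = 2.11e-05) in allogeneic and by 0.90 (SE 0.14, adjusted p = 2.09e-05) in syngeneic recipients against control.

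Among genes for proteins of the bodies that Malat1 and Neat1 occupy, more fell than rose at the RNA level after transplantation. Of 16 nuclear speckle genes, 12 fell and 0 rose in allogeneic against control (median -1.08), and 12 fell and 0 rose in syngeneic against control (median -0.94). Among all tested genes 29.1% fell and 28.2% rose in the first comparison, and 25.6% fell and 26.4% rose in the second. With library totals alone, falls outnumbered rises over all genes, 5259 to 2453 and 3968 to 2723. In allogeneic against syngeneic edgeR called 0 of the 16 speckle genes, where 16.5% of all tested genes were called. At an unadjusted p under 0.05 there were 5 speckle genes (2 higher and 3 lower), and DESeq2 and limma-voom called 1 each. With library totals alone 5 were called, with the offset for GC content and length 2, and with a library left out at most 1. Clk1, a kinase that phosphorylates splicing factors, had 34.0, 46.1, 49.4 and 37.2 CPM in allogeneic libraries, 48.1, 39.2, 39.3 and 38.0 CPM in syngeneic libraries, and 443.5, 454.6, 487.5 and 459.8 CPM in control libraries. It fell by 3.47 in allogeneic and by 3.49 in syngeneic recipients against control (SE 0.12 each), the greatest change of the list in both comparisons. Srsf2, a speckle splicing factor, fell by 1.92 in allogeneic and by 1.66 in syngeneic recipients against control (SE 0.10 each).

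Of 16 paraspeckle protein genes, 10 fell and 4 rose in allogeneic against control and 8 fell and 3 rose in syngeneic against control. Sfpq, a protein that Neat1 needs to form paraspeckles, averaged 60.2 ± 8.06 CPM in allogeneic, 55.9 ± 7.0 CPM in syngeneic and 140.9 ± 23.3 CPM in control microglia, a log2 fold change against control of -1.23 in allogeneic and -1.33 in syngeneic recipients (SE 0.13 each). Hnrnpk, an RNA-binding protein that shapes the Neat1 isoforms, went the other way, at 1199 ± 57.3 CPM in allogeneic, 1395 ± 39.3 CPM in syngeneic and 714 ± 39.7 CPM in control microglia. In allogeneic against syngeneic 2 genes of the list fell and 0 rose, and Hnrnpk was among those that fell (-0.22, SE 0.06, edgeR adjusted p = 0.0127). That count of 2 was 5 with library totals alone, 1 with the offset for GC content and length, and 1 without syngeneic library 1, 2 or 3 or allogeneic library 1, 3 or 4. Of 16 factors of nonsense-mediated decay, which removes many spliced host RNAs, 7 fell and 4 rose in allogeneic against control, 8 fell and 4 rose in syngeneic against control, and 1, the nuclease gene Smg6, fell in allogeneic against syngeneic (-0.92, SE 0.23, adjusted p = 0.00728). The shares that rose against control are near those of all tested genes (28.2% in allogeneic and 26.4% in syngeneic recipients), and 29.1% and 25.6% of all tested genes fell. With library totals alone 6 of the 16 were called in allogeneic against syngeneic, and without the third allogeneic library 2 were.

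**Figure D4:**
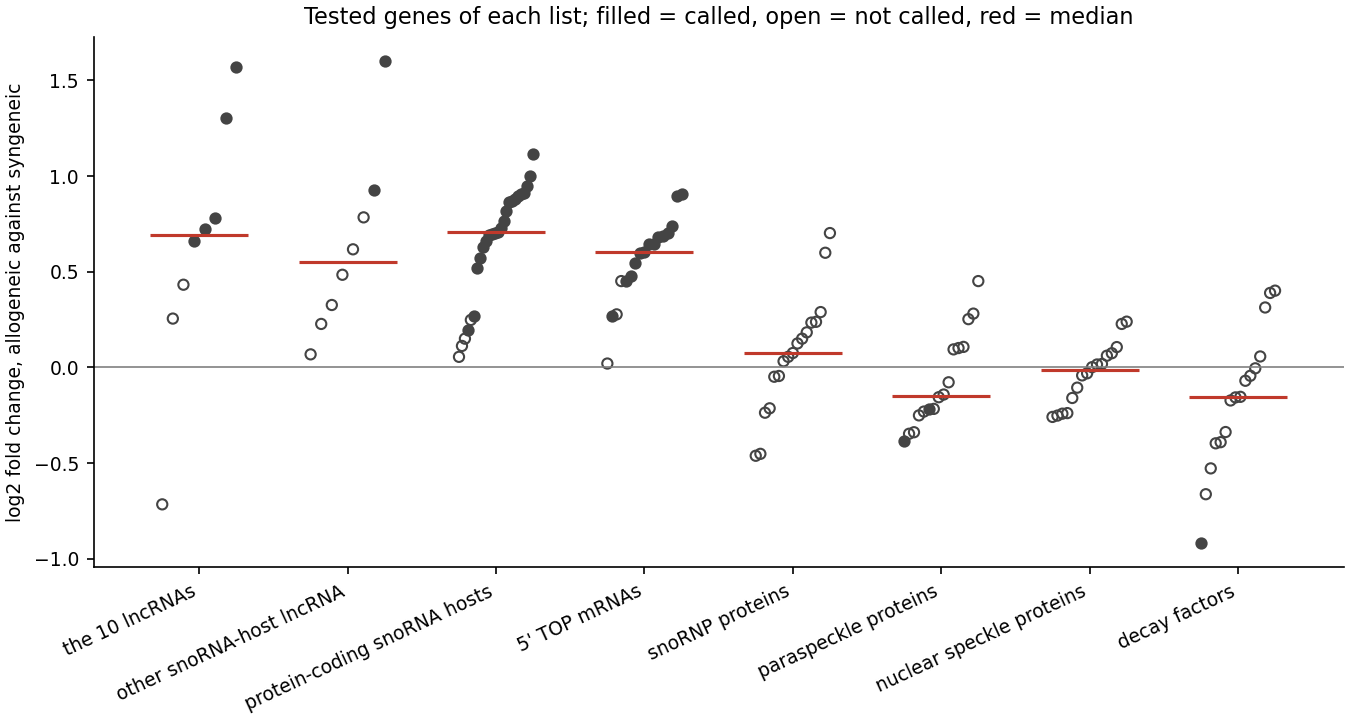
Log2 fold change in allogeneic against syngeneic microglia (vertical axis) for each tested gene of 8 lists, filled where called at an adjusted p under 0.05, with a red line at each list's median. The medians are 0.69 for the 8 tested lncRNAs, 0.71 for protein-coding snoRNA hosts and 0.61 for TOP mRNAs, and -0.02 for nuclear speckle proteins.

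Other long non-coding RNAs did not move as a block. Of 14 tested, 8 fell and 1 rose in allogeneic against control, 6 fell and 2 rose in syngeneic against control, and 3 rose and 2 fell in allogeneic against syngeneic. These 5 calls were 2 without the third syngeneic library and 3 without syngeneic library 1 or 4 or allogeneic library 1, 2 or 3, and limma-voom made 3. Among all tested genes 29.1% fell and 28.2% rose in allogeneic against control, and 25.6% fell and 26.4% rose in syngeneic against control. In allogeneic against syngeneic 10.1% of all tested genes rose and 6.38% fell. Of 12 small nuclear and polymerase III RNAs listed, 7 were in the table and 1 had enough counts to test, so the list is not described further. Xist, the nuclear RNA that coats the inactive X chromosome, had 25.3, 38.0, 20.6 and 24.2 CPM in allogeneic libraries, 3.72, 9.69, 9.31 and 11.6 CPM in syngeneic libraries, and 120.9, 206.2, 174.5 and 232.9 CPM in control libraries. The 3 groups did not overlap, and Xist was higher in allogeneic than in syngeneic recipients by 1.66 (SE 0.31, edgeR adjusted p = 0.00186). Peg13, an imprinted RNA of the brain, averaged 15.4 CPM in allogeneic, 29.7 CPM in syngeneic and 45.1 CPM in control microglia and was lower in allogeneic than in syngeneic recipients by 0.95 (log2 fold change -0.95, SE 0.27, adjusted p = 0.0219).

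The genes whose 12 log2 levels, each centred on its control mean, lay nearest to those of a member were found among 9008 genes by the root mean square difference. For Malat1 the nearest was Snhg20 (0.96 on the log2 scale), followed by Lime1, an adaptor of lymphocyte signalling (1.09), Degs2, an enzyme of sphingolipid synthesis (1.16), the nuclear RNA Firre (1.25) and Hdac10, a deacetylase (1.29). Firre averaged 1.24 ± 0.759 CPM in allogeneic, 0.860 ± 1.12 CPM in syngeneic and 79.3 ± 14.6 CPM in control microglia. For Snhg20 the nearest were Sfi1, a centrosomal protein gene (0.62), Tmem181b-ps (0.88), Hdac10 (0.91), Malat1 (0.96) and the collagen gene Col27a1 (0.99), of which Tmem181b-ps is a pseudogene with uncertain counts. Sfi1 averaged 56.7 ± 9.31 CPM in allogeneic, 53.9 ± 9.47 CPM in syngeneic and 1546 ± 161 CPM in control microglia. For Neat1 the nearest were Lime1 (1.28), Hdac10 (1.42), Tstd1 (1.53), Malat1 (1.55) and Degs2 (1.61), all farther from it than the 5 nearest genes were from Snhg20. These distances describe levels over the same 12 libraries and carry no test. Malat1 and Snhg20 were chosen because both stand far lower after transplantation, and the distances take in that gap. Their closeness to each other is therefore no separate finding.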

How the data were processed

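The authors deposited 1 table of raw read counts per gene symbol for 12 libraries, all of whose 12 sample columns were used. Per the submitters' processing notes, Trimmomatic 0.36 and STAR 2.5.2b were used with the mouse build mm9. The sources used here do not give the counting tool, gene models, strand setting or treatment of multi-mapping reads, so overlapping, antisense and multicopy genes are uncertain. How RNA was selected for the libraries, by poly(A) or by removal of ribosomal RNA, is not given either. Sequences, exon lengths, GC content and neighbours come from GENCODE and RefSeq on GRCm38, not mm9.

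CPM, log2 fold changes and adjusted p-values were computed from the deposited counts with edgeR 4.0.16 in R 4.3.3. The model was a robust quasi-likelihood fit of 12 libraries with group means, TMM scaling, the filterByExpr filter (minimum count 10) and Benjamini-Hochberg adjustment over 12695 genes, with a call at an adjusted p under 0.05. Intervals are 95% t intervals with the degrees of freedom of the fit. The procedure was tested on simulated counts. DESeq2 1.42.0, limma-voom (limma 3.58.1), other scalings and filters, an offset for GC content and length (loess span 0.3), a replicate block and leaving out each library were alternatives. The p-values measure the spread between the 4 mice of each group. Members, lists and tests were chosen with earlier results of these data known. Genes named are the members, up to 3 genes with the smallest p per list and comparison, the members' neighbours and hosted small RNAs, and the 5 genes nearest in pattern to Malat1, Snhg20 and Neat1; genes of mouse chromosome 18 were passed over, and a few other genes are not reported here, though counts of lists include them. Retreg3 was named after its match was seen.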

Additional observations from a re-analysis of the deposited data

Results flagged for a closer look

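Among 30 sets of 4 libraries (10 lncRNAs in 3 groups), 4 had a highest library that stood apart from the other 3 by more than Dixon's 95% critical value, where chance gives about 1 in 20. Neat1 reached 3.288 CPM in the third allogeneic library and 3.81 CPM in the first syngeneic library. Miat reached 0.05885 CPM in the fourth allogeneic library, which is 2 counts against 0 in the other 3 and is not read further. Gas5 reached 129.1 CPM in the fourth allogeneic library, where the other 3 had 112.6 to 115.0 CPM.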

How the results depend on the processing

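The numbers of genes called stayed within 1.5 times of those given in every alternative, at 1970 to 2952 for allogeneic against syngeneic, 6535 to 7712 for allogeneic against control and 5964 to 7121 for syngeneic against control; leaving out each library in turn gave 1768 to 2115, 6860 to 7362 and 6189 to 6761. Between 4 and 6 of the members were called in allogeneic against syngeneic. The sign turned for 3 results: Malat1 in allogeneic against syngeneic (-0.02 to 0.60 over the libraries left out, negative without the first allogeneic one), Neat1 in the same comparison (-3.22 to 0.24, positive without the first syngeneic one), and Snhg8 in syngeneic against control (-0.12 with the GC and length offset); the cause was not tested. Snhg20 lost its call in 11 alternatives, among them limma-voom (adjusted p = 0.428) and a fit of the compared groups only (0.549). The replicate numbers did not pair the libraries, since same-numbered libraries correlated between -0.015 and 0.0317 in their deviations; the fit with the replicate block called 2002, 7200 and 6507 genes in allogeneic against syngeneic, allogeneic against control and syngeneic against control, and Snhg20 had an adjusted p of 0.0709. Few counts limit Neat1, Kcnq1ot1 and Snhg20 after transplantation, and Miat and Snhg11 throughout.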
